A study of Mus musculus with 2 samples.

Results

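The genes described here encode the machinery of oxidative phosphorylation: the subunits of the 4 respiratory chain complexes and of the ATP synthase (complex V), together with assembly factors of complex I that share its naming. They were chosen by symbol, as genes named mt-Nd, mt-Co, mt-Cytb or mt-Atp, Nduf followed by a, b, c, s or v, Sdha to Sdhd, Uqcr, Cox4 to Cox8 or Atp5, without the suffix -ps, and with at least 200 unique molecular identifiers (UMIs, counts of captured RNA molecules) in each section. Of 32285 genes listed, 106 matched the names and 104 passed the UMI minimum. Cox7b2 and Cox8c fell below it, Ndufa4l2 (245 UMIs in the poorer section) and Cox8b (265 UMIs) lay just inside. Of the 104 genes, 13 are encoded in the mitochondrial genome (7 of complex I, 1 of complex III, 3 of complex IV and 2 of complex V) and 91 in the nucleus (36 of complex I, 8 complex I assembly factors, 4 of complex II, 8 of complex III, 18 of complex IV and 17 of complex V). Ndufa4 and Ndufa4l2 were counted with complex IV, where the Ndufa4 protein is now placed.

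RNA was captured with 10x Visium, a spatial method that tags transcripts by their place on a slide; its unit, the spot, covers a patch of tissue holding parts of several cells. The samples were 2 sections, 10 µm thick, of fresh-frozen brain from wildtype mice of the inbred strain C57BL/6, both labelled ZT12 and called sections 1 and 2 here. There was no second genotype, treatment or time, so the comparisons below are between groups of spots within these sections. Nothing in the labels ties the sections to different animals. The p-values therefore reflect only how far differences between groups of spots vary between these 2 sections, which may be technical or anatomical. An overall shift between the sections was allowed for in the test.

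Respiratory complexes I, III and IV pass electrons to oxygen and pump protons across the inner mitochondrial membrane, complex II feeds in electrons from succinate without pumping, and complex V uses the proton gradient to make ATP. Complexes I, III, IV and V combine subunits made inside the mitochondrion from its own genome with subunits imported from the cytosol, whereas complex II is wholly nuclear-encoded. Neurons depend on this pathway to power the ion pumps behind electrical signalling, and several complex IV subunits exist as alternative isoforms known from muscle, testis or lung.

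Nuclear genes of this pathway are known to be controlled in part by the factors NRF1 and GABP, so the promoters were searched for short runs of letters typical of their sites. RefSeq (GRCm38.p6) windows of 300 bases, 250 before to 50 after a gene's start, were available for 75 of the 91 nuclear-encoded genes (80 windows, since 5 genes had several starts). The letters CGCATGCG (NRF1) were found on either strand in 11 of the 80 windows, 13.8%, and in 1.87% of all 32851 windows in the same table. The letters AAGATGGCG (YY1) were found in 10.0% of these windows and in 1.4% of all windows. CCGGAAGT (GABP) was found in 6.25% and 3.89%, TCAAGGTCA (estrogen-related receptors) in 2.5% and 0.423%, and CTAAAAATA (MEF2) in 0 of the 80 windows and 0.517% of all. CGCATGCG reads the same on both strands, and no matches overlapped each other in these windows. A match is a description of the letters and not evidence of binding. The 130 bases from 100 before to 30 after the start are shown for 5 genes with such a match, with the matching letters in capitals.
Atp5k, chr5:108434370-108434499, minus strand: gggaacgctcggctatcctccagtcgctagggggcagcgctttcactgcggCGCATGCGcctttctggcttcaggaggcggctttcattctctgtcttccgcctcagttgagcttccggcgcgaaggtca
Atp5g2, chr15:102671018-102671147, minus strand: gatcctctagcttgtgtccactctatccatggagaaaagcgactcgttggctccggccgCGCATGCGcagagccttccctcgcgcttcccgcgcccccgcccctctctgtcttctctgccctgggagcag
Ndufa11, chr17:56717662-56717791, plus strand: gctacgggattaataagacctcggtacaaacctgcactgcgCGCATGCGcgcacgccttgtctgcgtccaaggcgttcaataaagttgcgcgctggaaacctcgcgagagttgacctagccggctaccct
Uqcr11, chr10:80406792-80406921, minus strand: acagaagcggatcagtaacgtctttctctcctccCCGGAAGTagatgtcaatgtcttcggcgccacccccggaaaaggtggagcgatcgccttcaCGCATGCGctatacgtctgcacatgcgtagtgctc
Cox8a, chr19:7217587-7217716, minus strand: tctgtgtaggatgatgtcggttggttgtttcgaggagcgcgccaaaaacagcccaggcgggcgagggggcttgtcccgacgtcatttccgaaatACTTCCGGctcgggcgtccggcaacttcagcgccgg

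Among the 10 called genes whose levels differed most between groups of spots (described further on), the table held windows for 8. The NRF1 letters lay in those of Ndufaf4 and Ndufaf5, and none of the 5 sets of letters in those of Cox6b2, Cox7a1, Cox8b, Ndufa10, Atp5md or Ndufaf7. The stretches of the 3 complex IV isoform genes and of Ndufa10 are shown as examples without a match.
Cox6b2, chr7:4753065-4753194, minus strand: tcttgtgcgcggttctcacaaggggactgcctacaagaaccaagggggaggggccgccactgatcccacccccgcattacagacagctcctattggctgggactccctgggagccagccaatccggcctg
Cox7a1, chr7:30184071-30184200, plus strand: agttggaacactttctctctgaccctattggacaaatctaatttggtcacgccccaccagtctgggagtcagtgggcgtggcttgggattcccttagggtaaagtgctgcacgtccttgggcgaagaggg
Cox8b, chr7:140900417-140900546, minus strand: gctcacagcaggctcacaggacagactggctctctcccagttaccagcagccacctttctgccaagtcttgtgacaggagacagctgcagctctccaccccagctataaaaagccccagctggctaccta
Ndufa10, chr1:92473729-92473858, minus strand: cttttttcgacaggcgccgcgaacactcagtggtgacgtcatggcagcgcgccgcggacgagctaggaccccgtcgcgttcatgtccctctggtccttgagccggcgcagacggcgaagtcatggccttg

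A minimum of 500 UMIs per spot left 3030 of the 3167 spots of section 1 (58643229 UMIs) and 2531 of the 2533 spots of section 2 (55850965 UMIs). They were grouped by lists of anatomical marker genes, none of which is a gene described here, and a group is named after its list. Of 12 such classes, the 8 that reached 30 spots in both sections were tested: thalamus (283 and 225 spots in sections 1 and 2), fibre tracts (288 and 233), meninges (93 and 37), CA pyramidal layer (82 and 136), dentate granule layer (68 and 50), deep isocortex (155 and 106), superficial isocortex (145 and 42) and hypothalamus (60 and 260). Of the untested classes, cerebellar cortex had 82 and 0 spots, dopaminergic midbrain 60 and 9, and striatum 25 and 157. The sections thus did not cover the same regions equally, and a class need not hold the same parts of its region in both. Each list was higher in its own class than in every sum of the other tested classes, which the grouping itself fixes, and 52.5% of the spots (2919 of 5561) were assigned to no class. The sections share 1965 spot barcodes, which are fixed positions of the array and not shared cells. UMIs were summed per section and class, which gave 16 sums of 684807 to 6853376 UMIs. Median depth per spot differed between classes, with 10004 and 13430 UMIs in fibre tract spots against 15913 to 31378 in the other tested classes. In spots, fewer cells of a type and less RNA per cell cannot be told apart.

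Each class was set against the average of the other 7 by edgeR's quasi-likelihood test with a term for the section, over 13214 genes, and a call required a p under 0.05 after Benjamini-Hochberg adjustment. The same sums enter every comparison, which makes the comparisons dependent on each other. Levels are CPM, the usual count scale in which a gene's UMIs are divided by all UMIs of the sum and brought to a common total, and fold changes are on the log2 scale after TMM scaling, with their standard error. CPM are set against each other within a gene, not between genes, since values per transcript length were not used.

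Levels of 69 of the 104 genes differed among the 8 classes, against a background of 58.0% of all genes tested. Among the mt-encoded genes 12 of 13 differed, with mt-Nd6 as the exception. It is the only gene of the set on the other strand of the mitochondrial genome. It also had the fewest UMIs of the 13, 3126 and 3077 in sections 1 and 2, against 23748 and 25885 for mt-Nd4l. Its range between class means was 0.28 in log2 CPM, and the part of its low count was not tested. Among the nuclear-encoded genes 57 of 91 differed: 23 of 36 of complex I, 4 of 8 assembly factors, 1 of 4 of complex II, 5 of 8 of complex III, 14 of 18 of complex IV and 10 of 17 of complex V. Differences were mostly small. The range from the lowest to the highest class mean had a median of 0.26 in log2 CPM for mt-encoded genes and 0.39 for nuclear-encoded genes. The widest ranges of genes called belonged to complex IV isoforms, Cox6b2 (2.63), Cox8b (2.62), Cox6a2 (2.28), Cox4i2 (2.09) and Cox7a1 (1.84), followed by Ndufa10 (0.78), Ndufaf5 (0.78), Atp5md (0.71), Ndufaf4 (0.67) and Ndufaf7 (0.65). Without the term for the section, 20 genes were called.

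The mt-encoded genes together took 14.9% of all UMIs in section 1 and 14.3% in section 2, and the nuclear-encoded genes 4.30% and 4.32% of the UMIs outside them. Of the tested classes, thalamus spots had the highest nuclear-encoded share, 4.51% and 4.45% in sections 1 and 2 against 3.58% to 4.37% in the 14 sums of the other classes, with no overlap. Fibre tract spots had the lowest, 3.58% and 3.73% against 3.76% to 4.51%, again with no overlap. Fibre tract spots also held 4.83 and 4.44 mt-encoded UMIs per nuclear-encoded UMI of the set, whereas thalamus spots held 3.99 and 3.83. Meningeal spots lay close to fibre tracts in section 1 (4.73) and lower in section 2 (4.03). The mt-encoded share was lower in CA pyramidal (13.1% and 12.8%) and dentate granule spots (13% and 12.5%) than in thalamus spots (15.2% and 14.6%). The fibre tract mt-encoded share, 14.7% and 14.2%, lay within the 12.5% to 15.2% of the other tested classes. Deep isocortex spots (13.5% and 12.5%) were as low as the hippocampal layers in section 2 and slightly higher than them in section 1. Spots assigned to no class had shares about as high as thalamus spots, 15.4% and 14.6% mt-encoded and 4.47% and 4.41% nuclear-encoded. Spots grouped by dopaminergic midbrain markers in section 1, which were not tested, had 16.1% and 4.89%. Choroid plexus spots, also untested, had nuclear-encoded shares of 4.47% and 4.64% in sections 1 and 2. These sums are descriptions and were given no test.

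**Figure D1:**
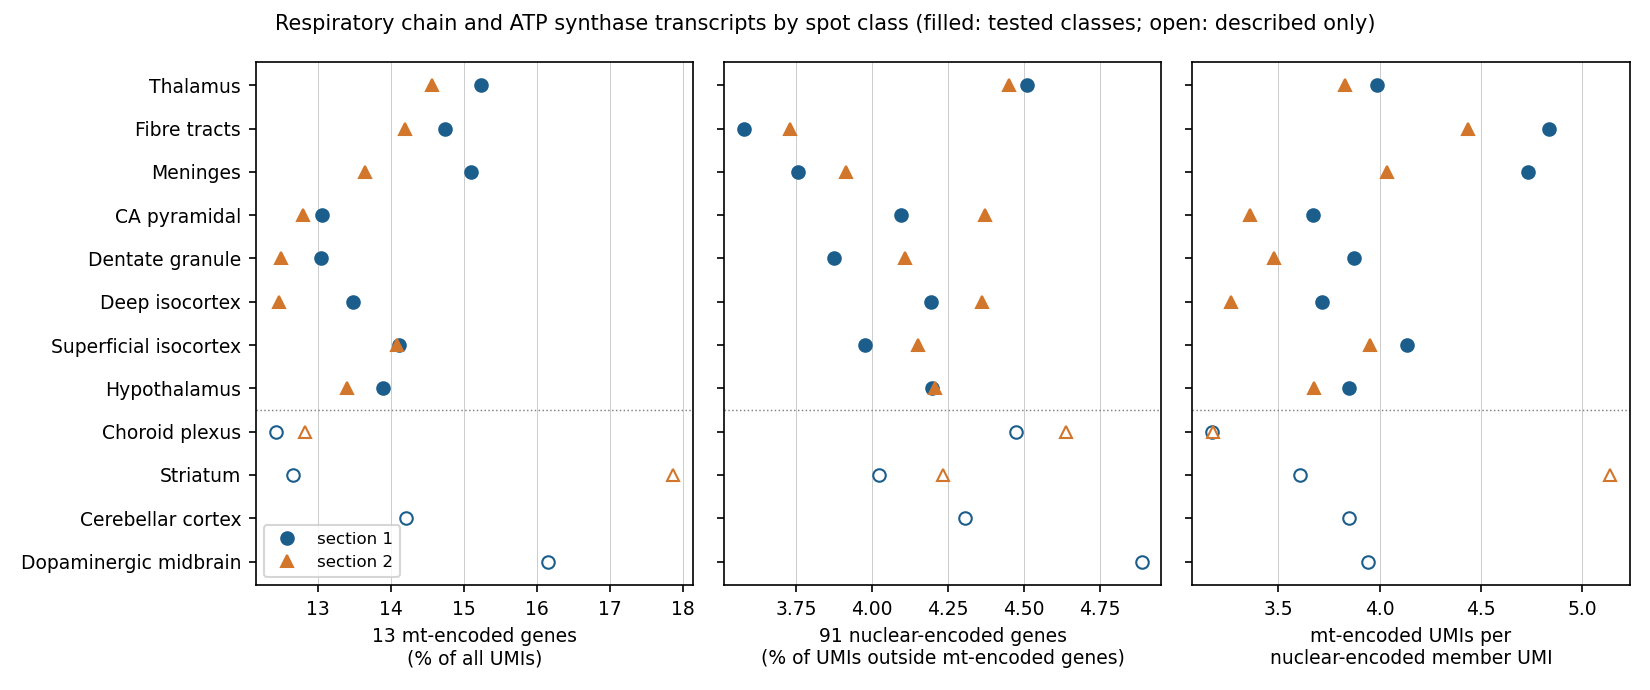
Share of UMIs from the 13 mt-encoded genes (left, % of all UMIs), share from the 91 nuclear-encoded genes (middle, % of UMIs outside the mt-encoded genes) and their ratio (right) for each spot class; each point is 1 section, filled for the 8 tested classes and open for 4 classes that were only described. Fibre tract spots lie at the low end of the middle panel (3.58% and 3.73%) and at the high end of the tested classes in the right panel (4.83 and 4.44).

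Of the 8 tested classes, thalamus spots had the most genes of the pathway called higher. Of the 13 mt-encoded genes 8 rose and 0 fell, and of the 91 nuclear-encoded genes 40 rose and 2 fell, against 13.1% of all genes tested that were higher in this class and 11.6% that were lower. The median log2 fold change was 0.14 for the mt-encoded genes and 0.17 for the nuclear-encoded genes, against -0.03 for all genes tested. Without this class's own sum of section 1, 2 mt-encoded and 11 nuclear-encoded genes were called, all higher, and without that of section 2, 3 and 18.

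Among the mt-encoded genes, mt-Nd1, a membrane subunit of complex I, had 12578 and 12628 CPM in thalamus spots of sections 1 and 2, against a lowest of 9865, a median of 11078 and a highest of 11722 CPM in the other 14 sums (log2 fold change 0.23 ± 0.04, adjusted p = 8.37e-05). Both thalamus values lay above all others. mt-Co1, the catalytic subunit of complex IV, had 31364 and 28913 CPM in thalamus spots, against 24010 to 29836 CPM elsewhere with a median of 26528 (0.23 ± 0.04, adjusted p = 6.26e-05). Its higher value lay above all others and its lower value within their range. mt-Co3, mt-Nd2, mt-Atp6, mt-Nd3, mt-Nd4 and mt-Cytb rose by 0.14 to 0.17, with thalamus values that overlapped those of other classes. mt-Co2 (0.10 ± 0.05), mt-Nd6 (0.08 ± 0.09), mt-Nd4l (0.06 ± 0.06), mt-Nd5 (0.05 ± 0.05) and mt-Atp8 (0.02 ± 0.08) did not pass the test. The reading frames of mt-Atp8 and mt-Atp6, and of mt-Nd4l and mt-Nd4, overlap on shared transcripts, and mt-Nd5 and mt-Nd6 overlap at their ends on opposite strands, so how reads were divided between them is uncertain. Of the calls named here, those of mt-Nd2, mt-Nd3, mt-Nd4, mt-Atp6 and mt-Cytb were lost without either section's thalamus sum and that of mt-Co3 without section 1. The folds were then 0.17 and 0.17 (mt-Nd2, without sections 1 and 2), 0.20 and 0.11 (mt-Nd3), 0.17 and 0.13 (mt-Nd4), 0.17 and 0.15 (mt-Atp6), 0.13 and 0.15 (mt-Cytb) and 0.16 (mt-Co3).

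**Figure D2:**
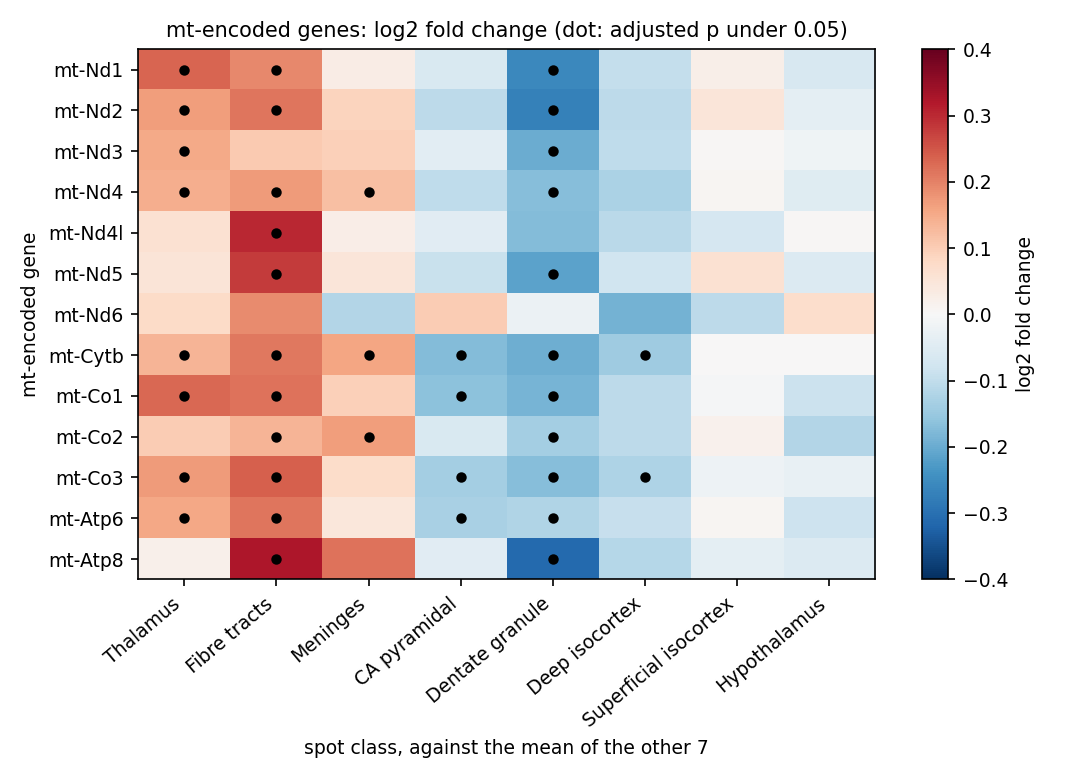
log2 fold change of each mt-encoded gene (down the page) in each tested spot class against the mean of the other 7 (across); red is higher, blue is lower, and a dot marks an adjusted p under 0.05. Most genes are higher in fibre tract spots (11 called) and thalamus spots (8 called) and lower in dentate granule spots (11 called).

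The nuclear-encoded genes called higher in thalamus spots were 14 of 36 of complex I, 1 of 4 of complex II and 3 of 8 of complex III. Of complex IV 12 of 18 were higher, of complex V 8 of 17 and of the assembly factors 2 of 8. The summed nuclear-encoded shares of complexes I and IV lay above those of all other tested classes in both sections, whereas those of II, III and V overlapped them. For complex II they were 0.0799% and 0.0740% of UMIs outside the mt-encoded genes, against 0.0672% to 0.0839% elsewhere. Cox6a2 (chr7:128205435-128206366), the heart and muscle isoform of complex IV subunit 6A, stood furthest out. It had 75.9 and 54.7 CPM in thalamus spots, against a lowest of 10.9, a median of 16.5 and a highest of 27.3 CPM elsewhere (1.90 ± 0.14, adjusted p = 3.62e-10). Both thalamus values were well above all others, and the call held under each of the 10 alternatives tried. Ndufa10 (chr1:92439486-92473825), an accessory subunit of complex I in the nucleoside kinase family, had 318 and 330 CPM in thalamus spots against 165 to 241 CPM elsewhere, also with no overlap (0.67 ± 0.06, adjusted p = 1.26e-08).

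Further complex IV subunits rose less. Cox7a1, the heart and muscle isoform of subunit 7A, had 23.1 and 14.7 CPM in thalamus spots against 7.03 to 37.3 CPM elsewhere (0.72 ± 0.15, adjusted p = 0.000617), and of the other tested classes only meningeal spots of section 1 exceeded the higher value. Cox4i2, an isoform of subunit 4 known from lung and from pericytes, had 5.93 and 9.15 CPM from 31 and 43 UMIs, against 0.767 to 7.47 CPM elsewhere (1.01 ± 0.28, adjusted p = 0.00913). The ubiquitous isoforms moved the same way. Cox6a1 had 846 and 920 CPM against 566 to 870 CPM (0.35 ± 0.06, adjusted p = 3.05e-05), and Cox7b had 796 and 722 CPM against 503 to 719 CPM (0.35 ± 0.05, adjusted p = 2.58e-05). Ndufa4 (0.28 ± 0.05), Cox6b1 (0.21 ± 0.06), Cox4i1 (0.20 ± 0.05), Cox7a2 (0.19 ± 0.06), Atp5g1 (0.19 ± 0.06) and Cox8a (0.18 ± 0.07) were also higher. The genes that fell were Cox6b2, the testis isoform of subunit 6B, with 6.88 and 6.59 CPM in thalamus spots against a median of 8.82 CPM elsewhere (-0.60 ± 0.21, adjusted p = 0.0359), and Ndufaf7, a methyltransferase needed to assemble complex I (-0.30 ± 0.10, adjusted p = 0.0298). The thalamus values of both fell within the range of the other sums. The mean set against Cox6b2 includes meningeal spots, where it was highest of the tested classes. As a share of Cox6b1 and Cox6b2 UMIs it was 1.08% and 1.12% in thalamus spots, within the 0.765% to 3.45% of the tested classes outside meninges. The calls of Ndufa10 and Cox7b in thalamus spots were not followed singly under the alternatives. Without the section 1 thalamus sum the calls of Cox7a1 (0.58), Ndufa4 (0.24) and Cox8a (0.01) were lost, and without that of section 2 the call of Cox4i2 (0.43). Some calls were lost without either section, at folds of 0.18 and 0.22 without sections 1 and 2 for Cox4i1, 0.17 and 0.25 for Cox6b1, 0.16 and 0.22 for Cox7a2, 0.15 and 0.25 for Atp5g1, -0.43 and -0.73 for Cox6b2 and -0.32 and -0.28 for Ndufaf7.

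Other mitochondrial genes were described from lists. Of 16 genes of the citric acid cycle and pyruvate dehydrogenase 8 rose and 0 fell in thalamus spots, among them Idh3a, a subunit of the NAD-dependent isocitrate dehydrogenase (0.41 ± 0.07, adjusted p = 3.8e-05), and Dlat of the pyruvate dehydrogenase complex (0.33 ± 0.08). Of 12 electron carriers, nucleotide and phosphate carriers and creatine kinase, 7 rose and 0 fell, led by Ckmt1, the mitochondrial creatine kinase (0.51 ± 0.06), Vdac1, an outer membrane channel (0.38 ± 0.06), and Slc25a5, an ADP/ATP carrier (0.37 ± 0.06). Of 24 assembly factors outside the naming rule 5 rose, a share not far from the 13.1% of all genes tested, with Uqcc1 of complex III highest (0.50 ± 0.10). The same holds for the 16 genes of mitochondrial gene expression and its regulators, of which 3 rose: Esrra, an orphan nuclear receptor (0.86 ± 0.07, adjusted p = 3.62e-09), Ppargc1a, a transcriptional coactivator (0.75 ± 0.12), and Polrmt, the mitochondrial RNA polymerase (0.36 ± 0.11). Within single sections the fold change of Esrra was 0.91 and 0.84 and that of Ppargc1a 0.81 and 0.63. Of 6 pan-neuronal markers 5 rose and 1 fell in the same spots and 4 of 5 red blood cell markers fell, and their part in these results was not tested.

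**Figure D3:**
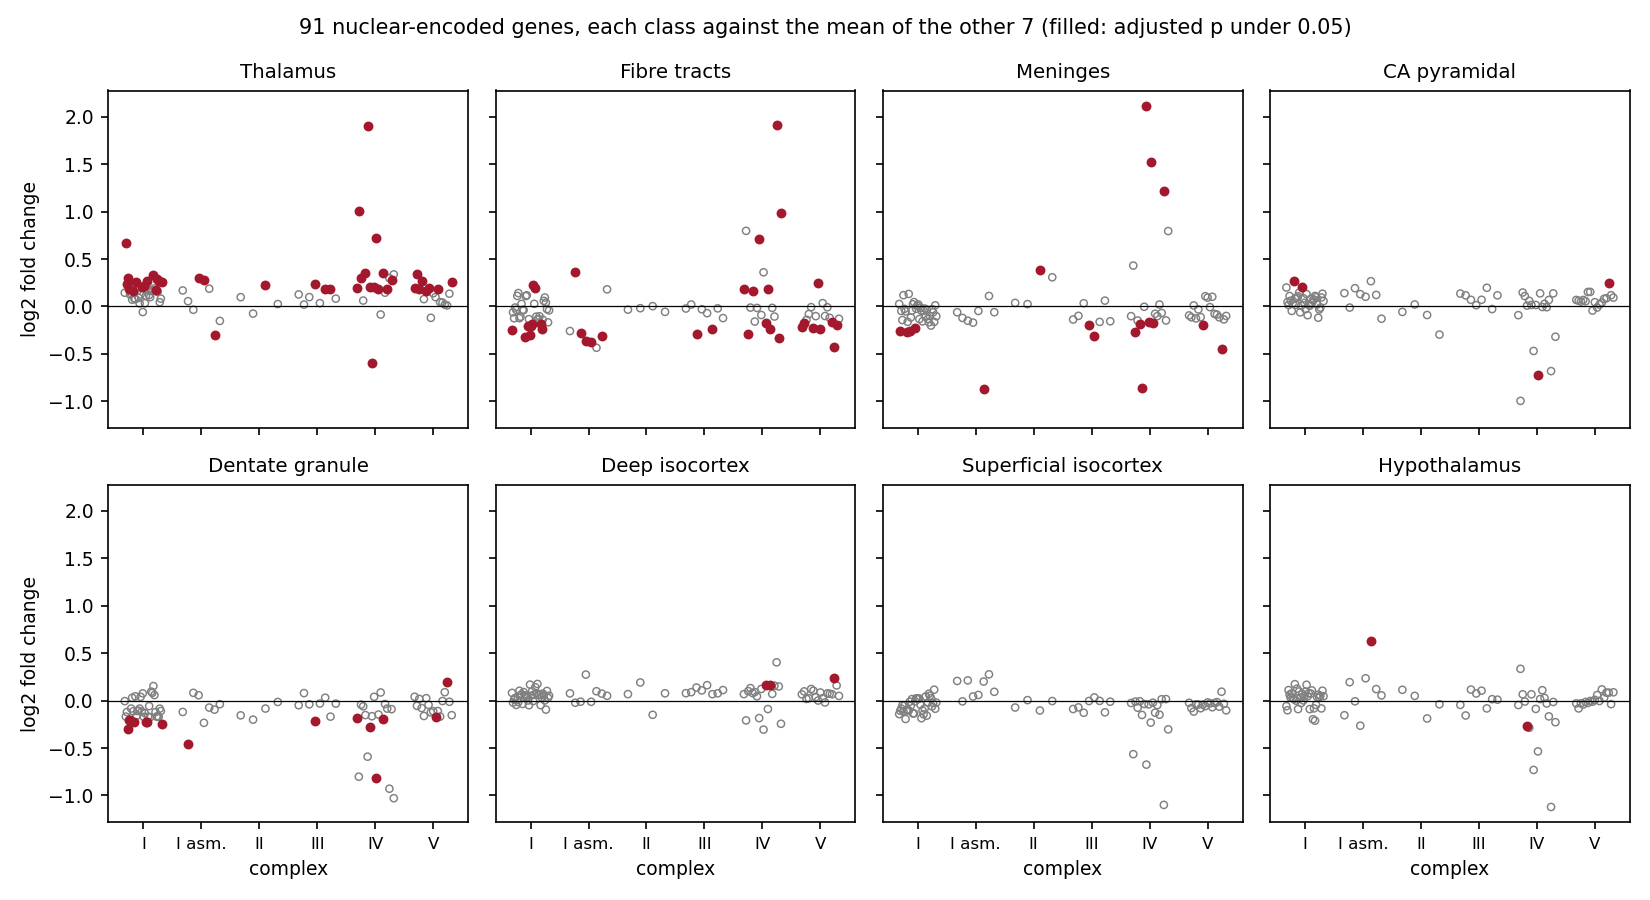
log2 fold change of the 91 nuclear-encoded genes in each tested spot class against the mean of the other 7, by complex (I asm., complex I assembly factors); filled points passed an adjusted p under 0.05. In thalamus spots 40 filled points are above 0 and 2 below, whereas in fibre tract spots 10 are above and 25 below.

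Fibre tract spots showed the mt-encoded and the nuclear-encoded genes apart. Of the 13 mt-encoded genes 11 rose and 0 fell, and of the 91 nuclear-encoded genes 10 rose and 25 fell, against 18.1% of all genes tested that were higher and 16.4% that were lower. The median log2 fold change was 0.21 for mt-encoded and -0.09 for nuclear-encoded genes, against -0.01 for all genes tested. The split depended on the scaling in size. Without TMM factors, where the median of all genes tested was -0.13, 6 mt-encoded genes rose, and 2 nuclear-encoded genes rose and 48 fell; with the mt-encoded genes taken out before the fit, 6 nuclear-encoded genes rose and 32 fell. Without this class's own sum of section 1, 10 mt-encoded and 5 nuclear-encoded genes were called, and without that of section 2, 9 and 16.

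The mt-encoded rise included every complex with such subunits. mt-Co3 of complex IV had 24233 and 21906 CPM in fibre tract spots, against a lowest of 19364, a median of 20778 and a highest of 24351 CPM in the other 14 sums (0.24 ± 0.04, adjusted p = 5.12e-05). mt-Nd5 of complex I had 1859 and 1534 CPM against 1275 to 1751 CPM (0.28 ± 0.05, adjusted p = 0.000146). mt-Nd4l had 439 and 476 CPM against 360 to 451 CPM (0.30 ± 0.06, adjusted p = 0.000245), and mt-Atp8 of complex V had 526 and 477 CPM against 378 to 568 CPM (0.32 ± 0.08, adjusted p = 0.00152). For mt-Nd5 the section 1 value and for mt-Nd4l the section 2 value lay above all others, and the remaining values lay within the range of the other classes. mt-Co1, mt-Atp6, mt-Nd2, mt-Cytb, mt-Nd1, mt-Nd4 and mt-Co2 rose by 0.13 to 0.22, and mt-Nd3 (0.11 ± 0.05) and mt-Nd6 (0.19 ± 0.09) did not pass the test. Without the section 1 sum the call of mt-Atp8 was lost (0.20), and without that of section 2 those of mt-Nd4 (0.11) and mt-Co2 (0.04).

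Among the nuclear-encoded genes that fell, Atp5md, a small membrane subunit of the ATP synthase, changed most. It had 698 and 609 CPM in fibre tract spots against 631 to 1125 CPM elsewhere with a median of 1007 (-0.43 ± 0.06, adjusted p = 3.18e-06), and only meningeal spots came as low. Ndufa4 had 730 and 799 CPM against 858 to 1171 CPM (-0.33 ± 0.06, adjusted p = 4.62e-05), and Cox7b had 508 and 503 CPM against 564 to 796 CPM (-0.23 ± 0.06, adjusted p = 0.00317). Neither overlapped the other classes. Of the 8 complex I assembly factors 4 fell and 1 rose. Ndufaf5, a hydroxylase acting on Ndufs7, had 27.5 and 29.0 CPM against 32.4 to 55.5 CPM (-0.38 ± 0.12, adjusted p = 0.0193). Ndufaf4 fell by 0.37 ± 0.13 and Ndufaf7 by 0.31 ± 0.12 on the log2 scale, and Ndufaf2, a chaperone of late complex I assembly, rose by 0.37 ± 0.10 (adjusted p = 0.00643). The calls of Cox7b, Ndufaf7 and Ndufaf2 in fibre tract spots were not followed singly under the alternatives. The calls of Ndufaf5 and Ndufaf4 were lost without either section's sum, with folds of -0.32 and -0.26 without section 1. No complex II gene passed the test in fibre tract spots, where the fold changes of Sdha to Sdhd lay between -0.06 and 0.00.

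Most nuclear-encoded rises in fibre tract spots were in complex IV, where 6 of 18 genes rose and 4 fell. Cox8b (chr7:140898942-140900446), the heart and muscle isoform of subunit 8, had 8.15 and 6.72 CPM from 24 and 22 UMIs, against a lowest of 0.767, a median of 2.17 and a highest of 6.29 CPM elsewhere (1.91 ± 0.29, adjusted p = 1.32e-05). Both values lay above all others, and the call held under each of the 10 alternatives. Cox6b2 had 18.3 and 10.4 CPM against 4.87 to 39.8 CPM (0.71 ± 0.20, adjusted p = 0.00746) and Ndufa4l2, known to be induced by low oxygen, had 5.43 and 8.25 CPM from 16 and 27 UMIs against 0.491 to 8.76 CPM (0.99 ± 0.36, adjusted p = 0.0338). Both overlapped other classes. The remaining complex IV rises were of the far more abundant Cox4i1, Cox6a1 and Cox7a2l, whose calls held under 5, 3 and 3 of the 10 alternatives. Without sections 1 and 2 their folds were 0.15 and 0.21 (Cox4i1), 0.20 and 0.14 (Cox6a1) and 0.24 and 0.135 (Cox7a2l). The summed choroid plexus markers, in whose spots Cox8b was far higher, were at 1928 and 2627 CPM in fibre tract spots against 1141 to 1999 CPM in the other tested classes, and all 6 markers of that list were detected in every class. Their part in the Cox8b result was not tested. The call of Cox6b2 was lost without the section 1 sum (0.36) and that of Ndufa4l2 without either (0.93 and 1.07).

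The proteolipid ring of the ATP synthase is built from identical c subunits that 3 genes encode. In fibre tract spots Atp5g2 rose (201 and 179 CPM against 152 to 205 CPM, 0.25 ± 0.08, adjusted p = 0.0134) and Atp5g3 fell (375 and 434 CPM against 483 to 556 CPM with no overlap, -0.24 ± 0.06, adjusted p = 0.00471). Atp5g2 accounted for 22.3% and 17.6% of the UMIs of the 3 genes in fibre tract spots of sections 1 and 2, and Atp5g3 for 41.6% and 42.7%. In thalamus spots the shares were 14.4% and 13.3% for Atp5g2 and 47.6% and 45.4% for Atp5g3. The call of Atp5g2 was lost without either section's sum (0.21 and 0.28), and that of Atp5g3 without section 1 (-0.13).

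Of the other mitochondrial lists in fibre tract spots, those of the citric acid cycle and of carriers held the most genes that fell. Of the 16 citric acid cycle genes 1 rose and 9 fell, and of the 12 carriers 0 rose and 9 fell. Slc25a22, a mitochondrial glutamate carrier, fell by 0.74 ± 0.12 and Ckmt1 by 0.40 ± 0.07 on the log2 scale, and Suclg2, of the GTP-forming succinyl-CoA ligase, rose by 0.51 ± 0.18. Of the 24 further assembly factors 0 rose and 3 fell, near the 16.4% of all genes tested that were lower, and of the 16 genes of mitochondrial gene expression 0 were called by edgeR, with 2 at an unadjusted p under 0.05. The 6 neuronal markers summed to 2576 and 2630 CPM in fibre tract spots, below the 2729 to 5344 CPM of the other classes, and all 6 fell. Of 6 astrocyte markers 5 rose, with sums of 2661 and 1928 CPM against 1372 to 2930 CPM. All 6 microglial and all 5 red blood cell markers rose, as did 4 of 5 endothelial markers, and the 3 markers of oligodendrocyte precursors summed to 322 and 495 CPM against 107 to 267 CPM, with no overlap. Their part in these results was not tested.

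Meningeal spots differed most in complex IV isoforms. Of the 13 mt-encoded genes 3 rose and 0 fell, and of the 91 nuclear-encoded genes 4 rose and 14 fell, against 16.0% of all genes tested that were higher and 12.2% that were lower. Cox6b2 (chr7:4751792-4753094) had 39.8 and 29.2 CPM in meningeal spots, from 95 and 20 UMIs, against a lowest of 4.87, a median of 7.02 and a highest of 18.3 CPM elsewhere (2.12 ± 0.20, adjusted p = 1.49e-08). Both values lay above all others. Cox7a1 (chr7:30184171-30186030) had 37.3 and 21.9 CPM from 89 and 15 UMIs, against 7.03 to 23.1 CPM (1.53 ± 0.19, adjusted p = 9.36e-07), and its lower value overlapped thalamus spots. Cox8b had 6.29 and 2.92 CPM from 15 and 2 UMIs against 0.767 to 8.15 CPM (1.21 ± 0.41, adjusted p = 0.0289). The fourth gene that rose was Sdhc, a membrane anchor of complex II (0.38 ± 0.09, adjusted p = 0.0032).

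The genes that fell in meningeal spots included Atp5md, with 735 and 631 CPM against 609 to 1125 CPM (-0.45 ± 0.06, adjusted p = 5.48e-06), and Ndufa5 of complex I, with 394 and 374 CPM against 398 to 562 CPM and no overlap (-0.27 ± 0.07, adjusted p = 0.00461). Cox6a2 fell by 0.86 ± 0.32 (adjusted p = 0.0473) and Ndufaf6, an assembly factor, by 0.87 ± 0.33 (adjusted p = 0.0494) on the log2 scale. Their UMIs were few, 26 and 11 of Cox6a2 and 15 and 2 of Ndufaf6. The mean set against Cox6a2 includes thalamus spots, where it was highest. As a share of Cox6a1 and Cox6a2 UMIs it was 1.88% and 2.16%, within the 1.71% to 3.25% of the tested classes outside thalamus. mt-Co2 (0.17 ± 0.05), mt-Cytb (0.16 ± 0.04) and mt-Nd4 (0.12 ± 0.05) rose, with values that overlapped other classes. The calls of Ndufa5 and Sdhc in meningeal spots were not followed singly under the alternatives. Without the section 1 sum of this class 0 mt-encoded and 3 nuclear-encoded genes were called by edgeR, and without that of section 2, 5 and 10. The calls of mt-Co2 (0.07), mt-Cytb (0.04), mt-Nd4 (0.03), Cox7a1 (1.22) and Cox8b (0.54) were lost without section 1, and those of Cox6a2 (-0.55 and -1.01 without sections 1 and 2) and Ndufaf6 (-1.61 and -0.73) without either section, whereas those of Cox6b2 and Atp5md held. In these spots the 5 mural cell markers, all detected, summed to 1608 and 1367 CPM against 190 to 322 CPM elsewhere, the 5 endothelial markers to 363 and 425 CPM against 155 to 282 CPM, and the 5 red blood cell markers to 11469 and 17411 CPM against 412 to 2024 CPM. Their part in these results was not tested. The choroid plexus markers were at 1236 and 1500 CPM, against 1141 to 2627 CPM elsewhere.

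In the hippocampus, dentate granule spots had 0 mt-encoded genes higher and 11 of 13 lower, and 1 nuclear-encoded gene higher and 14 lower, against 11.5% of all genes tested that were higher and 9.63% that were lower. The median log2 fold change was -0.19 for mt-encoded and -0.11 for nuclear-encoded genes, against -0.02 for all genes tested. mt-Nd1 had 9983 and 9865 CPM in dentate granule spots against 10361 to 12628 CPM elsewhere (-0.26 ± 0.04, adjusted p = 6.9e-05), and mt-Atp8 had 378 and 383 CPM against 389 to 568 CPM (-0.31 ± 0.08, adjusted p = 0.00937). Neither overlapped the other classes. mt-Nd2 had 10024 and 10755 CPM against 10695 to 13084 CPM (-0.27 ± 0.04, adjusted p = 4.8e-05). Among nuclear-encoded genes Cox6b1 had 482 and 476 CPM against 496 to 632 CPM (-0.28 ± 0.07, adjusted p = 0.00295), Ndufaf2 had 37.8 and 39.1 CPM against 40.3 to 69.1 CPM (-0.45 ± 0.13, adjusted p = 0.0169) and Ndufa12, an accessory subunit of complex I, fell by 0.30 ± 0.07 (adjusted p = 0.00205). Cox7a1 was also called lower in dentate granule spots, from only 15 and 12 UMIs in sections 1 and 2, and the call held under 6 of the 10 alternatives. Its fold was -0.30 without the section 1 sum of this class and -1.15 without that of section 2, so its size rested mostly on section 1. Its comparison mean includes meningeal spots, where Cox7a1 was highest of the tested classes. Atp5md was the gene that rose (0.20 ± 0.06, adjusted p = 0.0141).

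The dentate counts changed with the section and the scaling. Without the section 1 sum of the class 2 mt-encoded and 0 nuclear-encoded genes were called by edgeR, and without that of section 2, 5 and 7. Without TMM factors 6 mt-encoded genes fell, and 2 nuclear-encoded genes rose and 4 fell. The calls of Cox6b1 (-0.26), Ndufaf2 (-0.27) and Ndufa12 (-0.29) were lost without section 1, and those of mt-Atp8 (-0.34 and -0.28 without sections 1 and 2) and Atp5md (0.21 and 0.19) without either section, whereas those of mt-Nd1 and mt-Nd2 held. The 5 markers of dendritic transcripts summed to 2876 and 2553 CPM in these spots, above the 929 to 2526 CPM of the other tested classes. Of the other cell type markers, 3 of 6 astrocyte, 4 of 5 mural and 4 of 5 red blood cell ones fell, and the part of these cells in the result was not tested.

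CA pyramidal spots had 0 mt-encoded genes higher and 4 lower, and 3 nuclear-encoded genes higher and 1 lower, against 8.67% of all genes tested that were higher and 6.98% that were lower. mt-Cytb, the mt-encoded subunit of complex III, fell by 0.17 ± 0.05, mt-Co1 by 0.16 ± 0.04, mt-Co3 by 0.14 ± 0.04 and mt-Atp6 by 0.13 ± 0.04 on the log2 scale. Ndufa5 had 562 and 540 CPM in CA pyramidal spots against 374 to 528 CPM elsewhere, with no overlap (0.27 ± 0.06, adjusted p = 0.00303). Atp5md (0.25 ± 0.06) and Ndufb2 of complex I (0.21 ± 0.07) also rose, and Cox7a1 had 9.08 and 7.03 CPM against a median of 11.5 CPM (-0.72 ± 0.21, adjusted p = 0.0194). The mean set against Cox7a1 includes meningeal spots, where it was highest of the tested classes. As a share of subunit 7A UMIs it was 0.891% and 0.691% in CA pyramidal spots, against 0.770% to 2.22% in the remaining tested classes outside meninges. Without the section 1 sum of this class 0 mt-encoded and 1 nuclear-encoded gene were called by edgeR, and without that of section 2, 1 and 1. Of the cell type markers, 6 of 6 neuronal and 4 of 5 dendritic ones rose, and 5 of 6 astrocyte and 4 of 5 red blood cell ones fell; their part in the result was not tested. The calls kept were Atp5md without section 1 (0.34), and mt-Co1 (-0.18) and Ndufa5 (0.33) without section 2.

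Set directly against dentate granule spots, CA pyramidal spots had 2 of the 104 genes higher and 0 lower, against 3.60% of all genes tested that were higher and 4.0% that were lower. Ndufa12 had 317 and 342 CPM in CA pyramidal spots and 255 and 272 CPM in dentate granule spots (0.35 ± 0.08, adjusted p = 0.00766). Cox7a2 had 721 and 732 CPM in CA pyramidal spots and 642 and 614 CPM in dentate granule spots (0.25 ± 0.08, adjusted p = 0.0497). For both genes, both CA pyramidal values lay above both dentate granule values. The call of Cox7a2 was lost when either section was left out of CA pyramidal (0.33 and 0.19 without sections 1 and 2), and that of Ndufa12 without section 2 (0.36). The median log2 difference of the mt-encoded genes was 0.11 and 0 of 13 were called by edgeR, with 3 at an unadjusted p under 0.05.

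Few genes were called in isocortex and hypothalamus spots. Deep isocortex spots had 0 mt-encoded genes higher and 2 lower, mt-Cytb (-0.14 ± 0.05) and mt-Co3 (-0.12 ± 0.04), with a median over the 13 genes of -0.11, and 3 nuclear-encoded genes higher and 0 lower, against 7.93% of all genes tested that were higher and 5.84% that were lower. Those that rose were Atp5md, with 1117 and 1009 CPM against a median of 969.9 CPM elsewhere (0.24 ± 0.05, adjusted p = 0.00391), Cox7b (0.17 ± 0.06) and Cox7a2 (0.17 ± 0.06), and 0 genes were called by edgeR without either section's sum. In these spots 5 of 6 neuronal markers rose and 4 of 6 astrocyte markers fell, and their part in the result was not tested. In superficial isocortex spots 0 of the 104 genes were called by edgeR or by DESeq2, with 8 at an unadjusted p under 0.05 in edgeR's test, against 6.91% of all genes tested that were higher and 4.81% that were lower. Hypothalamus markers summed to 170 and 505 CPM in these spots of sections 1 and 2, against 134 to 401 CPM in the tested classes other than hypothalamus. Striatum markers summed to 136 and 365 CPM, against 84.5 to 232 CPM in the other tested classes. Their part in this result was not tested. Set directly against superficial isocortex spots, deep isocortex spots also had 0 of the 104 genes called by edgeR or by DESeq2, with 15 at an unadjusted p under 0.05, against 1.01% and 0.954% of all genes tested that were higher and lower. Hypothalamus spots had 0 of 13 mt-encoded genes called by edgeR or by DESeq2, with 2 at an unadjusted p under 0.05. Of the nuclear-encoded genes 1 was higher and 1 lower, against 6.14% of all genes tested that were higher and 4.83% that were lower. Ndufaf6 had 12.7 and 12.8 CPM in hypothalamus spots against 2.92 to 12.6 CPM elsewhere (0.62 ± 0.20, adjusted p = 0.047), and Cox6a1 had 566 and 716 CPM against 568 to 920 CPM (-0.26 ± 0.06, adjusted p = 0.00522). The call of Ndufaf6 was lost without either section's sum (0.71 and 0.36), and that of Cox6a1 without section 1 (-0.23).

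The complex IV isoforms can also be read as a share of the UMIs of their subunit, which does not depend on the scaling between classes. Intervals are exact binomial 95% intervals and cover counting error only. Cox6a2 made up 8.23% (7.47% to 9.04%) and 5.61% (4.96% to 6.31%) of Cox6a1 and Cox6a2 UMIs in thalamus spots of sections 1 and 2, against 1.71% to 3.25% in the other tested classes. Cox6b2 made up 6.88% (5.60% to 8.34%) and 5.15% (3.18% to 7.85%) of Cox6b1 and Cox6b2 UMIs in meningeal spots, against 0.765% to 3.45% in the other tested classes, the highest in fibre tract spots of section 1. Cox7a1 made up 4.03% (3.25% to 4.93%) and 2.64% (1.49% to 4.32%) of subunit 7A UMIs in meningeal spots, against 0.691% to 2.22% in the other tested classes, the highest in thalamus spots of section 1. Cox8b stayed at or under 1.42% of subunit 8 UMIs and Cox4i2 at or under 0.513% of subunit 4 UMIs in the tested classes, and Ndufa4l2 at or under 1.02% of Ndufa4 and Ndufa4l2 UMIs.

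**Figure D4:**
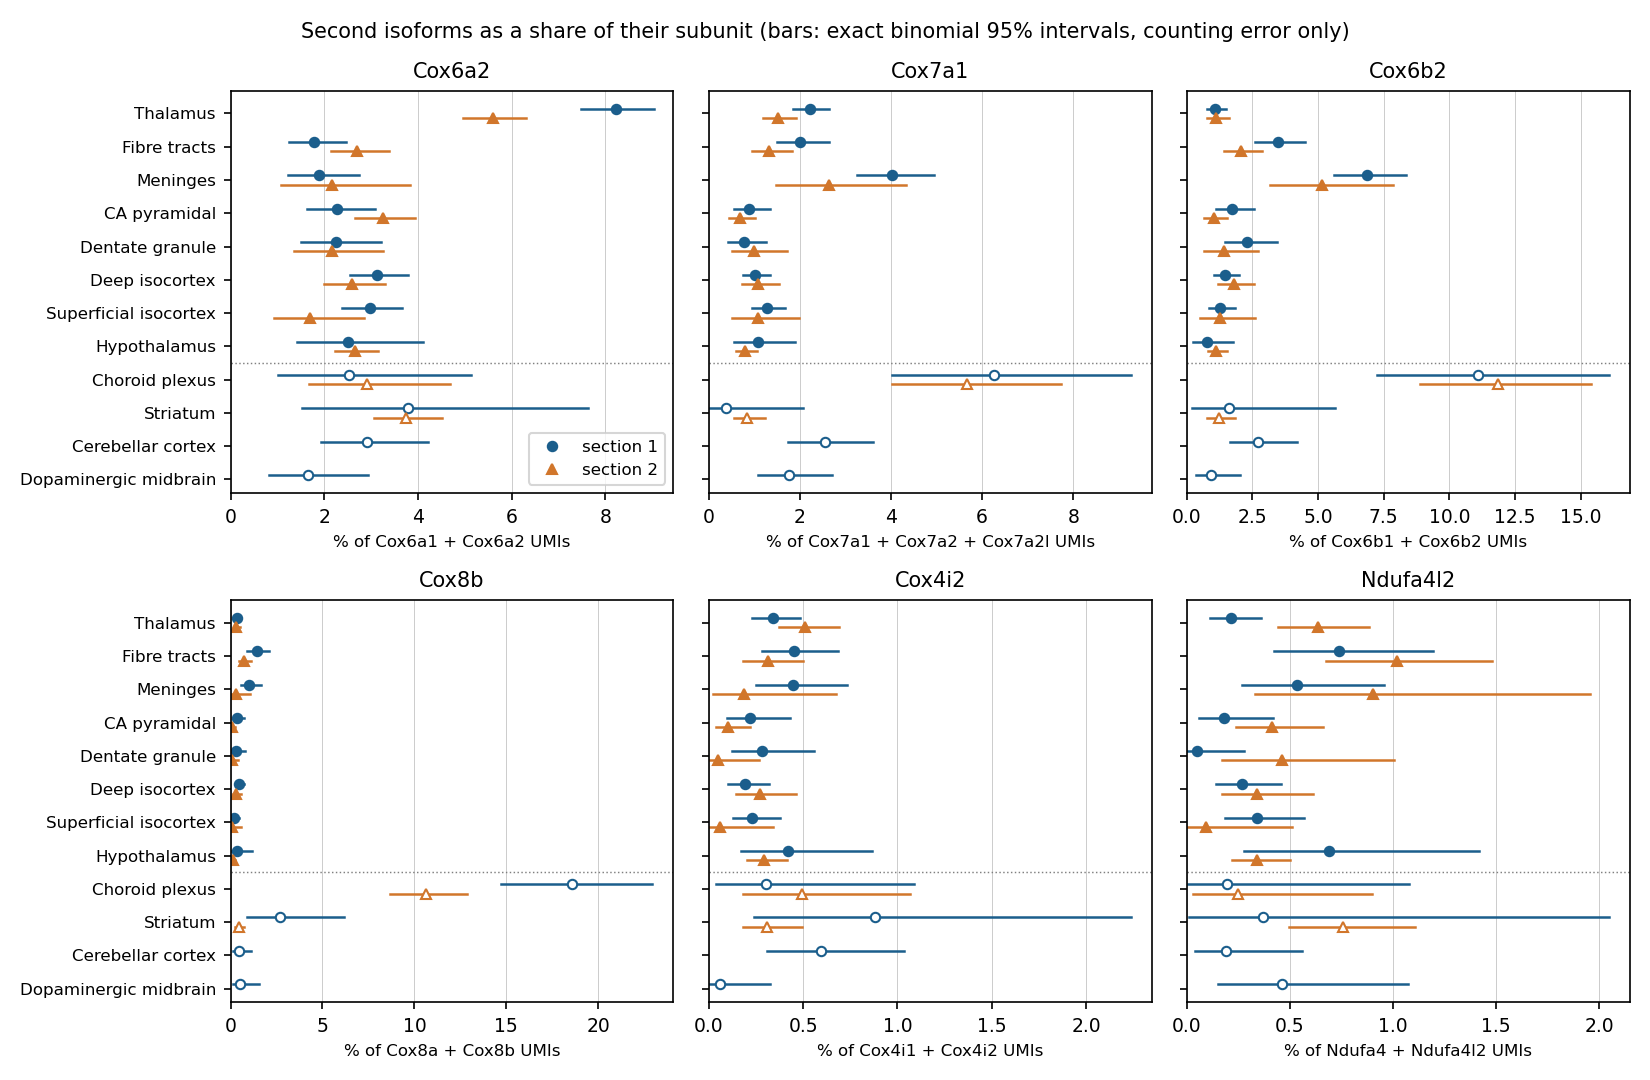
Share of a subunit's UMIs that came from its less abundant isoform, by spot class and section (points), with exact binomial 95% intervals (bars); filled points are tested classes and open points classes that were only described. Cox6a2 is highest in thalamus spots (8.23% and 5.61%), and Cox6b2, Cox7a1 and Cox8b are highest in choroid plexus spots.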

How the data were processed

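The authors deposited filtered matrices of UMI counts per gene and spot; per the file headers they were made with Space Ranger 1.2.2 for section 1 and 2.0.1 for section 2, whereas the submitters' processing notes name 2.0.1 and mm10 for both. Counts of spots with at least 500 UMIs were used as deposited. Spots were scored by marker lists, each gene scaled to its percentile 99.5, and assigned where the highest score reached 0.5 and led by 0.15. UMIs were summed per class and section. edgeR 4.0.16 (R 4.3.3) fitted 13278 genes with TMM factors, the class and the section, with 7 residual degrees of freedom, and 64 marker genes were left out of the 13214 tested. The section is a block because sums of the same number come from the same section. Adjusted p-values are Benjamini-Hochberg over all genes tested. Named were the mt-encoded genes, the isoform families, in every class the called nuclear-encoded genes with the 3 strongest rises and the 3 strongest falls (same sign in each section), per pair the 5 strongest each way, the 10 widest ranges, and up to 4 called genes of each other list; Sdhc in meninges and Ndufaf2 in fibre tracts were singled out after their values were seen. Alternatives were no filter on low counts, DESeq2 1.42.0, library sizes without TMM, other groupings and UMI minimums, the mt-encoded genes taken out, no section term, and each class without either section. Steps were tested on simulated data. Python 3.11.15 with numpy 2.4.6, pandas 2.3.3, scipy 1.17.1 and matplotlib 3.10.9 did the rest. The genes and lists were chosen with earlier results of these data known. Depth sets precision: the class sums held 684807 to 6853376 UMIs, and intervals cover counting error only.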

Additional observations from a re-analysis of the deposited data

Results flagged for a closer look

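Some genes outside the set had signal above the limit that a count of 0 allows, 3 UMIs. Cox7b2, a testis isoform of complex IV subunit 7B, had 59 UMIs in section 1 and 58 UMIs in section 2, and Cox8c, a testis isoform of subunit 8, had 6 UMIs in section 2. Both matched the naming rule but not its UMI minimum. Ndufb1-ps, left out by its suffix, had 19787 UMIs in section 1 and 15865 UMIs in section 2; RefSeq names it Ndufb1, a subunit of complex I.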

How the results depend on the processing

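Of 172 counts of calls under an alternative, 105 lay within 1.5 times the reported count, 66 did not and 1 reversed its balance. Of 849 values of single genes, 573 kept their call, 276 lost it and 0 changed direction. The 105 include counts of 0 that stayed at 0, which cannot show stability of calls. They were those of superficial isocortex, of mt-encoded genes in hypothalamus and of deep against superficial isocortex. Counts follow as mt-encoded and nuclear-encoded genes. With no replicate block (no section term), 20 genes differed among classes; CA pyramidal had 0 and 0 calls, deep isocortex 0 and 0, dentate granule 2 and 2, meninges 0 and 6, thalamus 2 and 8, fibre tracts 10 nuclear-encoded, hypothalamus 0 nuclear-encoded, and CA pyramidal against dentate granule 0. In meninges the balance reversed, with 4 higher and 2 lower. With DESeq2, CA pyramidal had 2 and 2, deep isocortex 0 and 1, meninges 1 and 8, thalamus 5 mt-encoded, fibre tracts 23 nuclear-encoded, hypothalamus 1 nuclear-encoded, and CA pyramidal against dentate granule 1. Without TMM factors, deep isocortex had 0 and 6, dentate granule 6 and 6, fibre tracts 6 and thalamus 5 mt-encoded, CA pyramidal 8 nuclear-encoded, and CA pyramidal against dentate granule 1. With no filter on low counts deep isocortex had 1 and 1. With stricter grouping it had 0 and 1, dentate granule 24 nuclear-encoded, and CA pyramidal against dentate granule 5; meninges and superficial isocortex then had too few spots to test. With looser grouping CA pyramidal had 2 and dentate granule 4 mt-encoded, and deep isocortex 6 nuclear-encoded. Without replicate 1 or 2 of the class, mt-encoded counts ran 0 to 1 in CA pyramidal, 0 to 0 in deep isocortex, 2 to 5 in dentate granule, 9 to 10 in fibre tracts, 0 to 5 in meninges and 2 to 3 in thalamus, and nuclear-encoded counts 1 to 1, 0 to 0, 0 to 7, 5 to 16, 3 to 10 and 11 to 18, with 0 to 1 in hypothalamus and 0 to 1 between the hippocampal layers. The cause was not tested. The count among classes was not run without a section, since no residual degrees of freedom remain. Few UMIs limit Cox8b, Cox4i2, Ndufa4l2 and Ndufaf6. Some calls named above were not followed singly, nor were those of genes outside the set.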

Other observations

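Choroid plexus spots, only 17 in section 1 and 29 in section 2 and therefore not tested, had the highest levels of 3 complex IV isoforms. Cox8b was at 180 and 144 CPM in choroid plexus spots, against at most 8.15 CPM in the tested classes, and made up 18.6% (exact 95% interval 14.7% to 22.9%) and 10.7% (8.70% to 12.9%) of subunit 8 UMIs. Cox6b2 was at 63.6 and 73.4 CPM there and made up 11.1% and 11.9% of subunit 6B UMIs. Cox7a1 was at 61.0 and 56.6 CPM and made up 6.27% and 5.67% of subunit 7A UMIs. These spots also held the fewest mt-encoded UMIs per nuclear-encoded UMI, 3.17 in section 1 and 3.18 in section 2.

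Striatum spots differed between the sections, with 12.7% mt-encoded UMIs in 25 spots of section 1 and 17.9% in 157 spots of section 2, while their nuclear-encoded shares were 4.02% and 4.24%. Over single spots the mt-encoded share ran from 9.36% at the 5th percentile to 20.5% at the 95th in section 1 and from 11% to 19.3% in section 2. Spearman's rho between the nuclear-encoded share and the summed neuronal markers was 0.44 in section 1 (3030 spots) and 0.44 in section 2 (2531 spots). Between the mt-encoded share and the astrocyte markers it was 0.44 and 0.35. These were the largest values of each share with a cell type list. For the mt-encoded share rho was -0.16 and -0.14 with the neuronal markers and -0.07 and -0.30 with the UMIs of the spot. For the nuclear-encoded share it was -0.22 and -0.13 with the markers of dendritic transcripts. The points of a section share 1 library, and these values are descriptions.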
